A study of Mus musculus with 16 samples.

Results

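The cytochrome P450 genes of the mouse terminal ileum were described in RNA-seq counts of 16 male mice. The members are the genes whose symbol consists of Cyp, a family number and, where present, a subfamily letter and a gene number, and which had at least 10 counts in at least 3 libraries. Of 95 such symbols among the 21965 genes of the table, 41 reached this limit, in 22 subfamilies, and all 41 are protein-coding genes that passed the filter of the fit, in which 13811 genes were tested. The other 54 symbols lay below the limit, and 18 of them had no count in any library. Just inside it was Cyp2d9, with 10 counts or more in 3 libraries, and just outside it were Cyp2c69 and Cyp4x1, each with 2 such libraries. Cyp1a1, the enzyme induced by aromatic compounds, reached at most 8 counts. All mice were of the C57BL/6 background and 8 to 10 weeks of age when the diets began. The fat-1 mice carried 1 copy of a transgene for the n3 fatty acid desaturase of Caenorhabditis elegans (written Fat1+/- in the sample labels), which converts n6 into n3 polyunsaturated fatty acids in all tissues, and WT mice were their littermates without it. The transgene is not the mouse gene Fat1, and its own level was not analysed here. EtOH-fed mice received a Lieber-DeCarli liquid diet in which ethanol rose over 0, 1 and 2% (2 days each) and 4 and 5% (7 days each) to 6% for 21 days, and pair-fed (PF) mice received the same calories with maltose dextrin in its place. Each mouse gave 1 library, and the groups held 5 (fat-1 EtOH), 4 (fat-1 PF), 3 (WT EtOH) and 4 (WT PF) mice.

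Cytochrome P450 enzymes are heme proteins that add an oxygen atom to small, mostly fat-soluble molecules. They take their electrons from P450 reductase in the endoplasmic reticulum or from adrenodoxin in mitochondria. Families CYP1 to CYP3 handle chiefly drugs, food compounds and other foreign substances, CYP4 enzymes hydroxylate fatty acids and eicosanoids, and the higher families make or break down sterols, bile acids, steroid hormones, vitamin D and retinoic acid. In the gut the xenobiotic enzymes sit in the enterocytes of the villus, most of all in the proximal small intestine, where they act on food compounds before these reach the liver. Several are switched on by nuclear receptors, among them CAR (Nr1i3) for Cyp2b genes and PXR (Nr1i2) for Cyp3a genes.

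The values of 5 members carry the patterns described here, and the 250 bases before their RefSeq start sites are shown for that reason. Cyp2b10 had the largest fall with EtOH, Cyp3a11 and Cyp3a44 are neighbours whose levels moved in opposite directions, and Cyp2c55 and Cyp2c65 are neighbours of which the first was highest where large intestine genes were high. The sequences are from RefSeq (GRCm38.p6), in which 31 of the 41 members could be matched by symbol, and read 5′ to 3′ on the strand of the gene. Capitals mark matches on either strand to AGATAA or TGATAA (the site bound by GATA factors), GTTAAT (an HNF1 half-site) or CAAAGTCC or CAAAGGTC (an HNF4 core).
Cyp2b10 (chr7:25897408-25897657, + strand): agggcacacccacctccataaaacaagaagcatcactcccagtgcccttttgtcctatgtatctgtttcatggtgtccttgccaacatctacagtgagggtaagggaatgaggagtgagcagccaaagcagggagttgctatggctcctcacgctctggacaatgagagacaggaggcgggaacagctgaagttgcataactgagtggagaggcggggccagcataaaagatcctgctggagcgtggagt
Cyp3a11 (chr5:145879855-145880104, - strand): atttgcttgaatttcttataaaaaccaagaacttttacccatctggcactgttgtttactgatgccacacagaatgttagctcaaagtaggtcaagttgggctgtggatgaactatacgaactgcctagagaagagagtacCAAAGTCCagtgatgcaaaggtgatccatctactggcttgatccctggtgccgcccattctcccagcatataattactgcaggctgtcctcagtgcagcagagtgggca
Cyp3a44 (chr5:145805875-145806124, - strand): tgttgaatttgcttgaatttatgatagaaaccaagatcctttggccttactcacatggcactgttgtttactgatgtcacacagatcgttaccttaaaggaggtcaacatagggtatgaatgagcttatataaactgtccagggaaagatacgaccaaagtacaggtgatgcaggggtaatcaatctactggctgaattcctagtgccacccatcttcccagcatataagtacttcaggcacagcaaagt
Cyp2c55 (chr19:39006769-39007018, + strand): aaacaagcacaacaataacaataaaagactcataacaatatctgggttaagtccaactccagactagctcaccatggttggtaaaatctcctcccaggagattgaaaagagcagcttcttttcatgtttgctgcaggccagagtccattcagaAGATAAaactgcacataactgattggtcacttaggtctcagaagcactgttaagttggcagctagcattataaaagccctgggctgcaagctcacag
Cyp2c65 (chr19:39060756-39061005, + strand): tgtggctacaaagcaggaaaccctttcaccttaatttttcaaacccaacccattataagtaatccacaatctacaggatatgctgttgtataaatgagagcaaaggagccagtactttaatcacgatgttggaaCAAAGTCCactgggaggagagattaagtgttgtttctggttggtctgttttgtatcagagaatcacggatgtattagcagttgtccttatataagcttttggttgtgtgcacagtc

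Counted from the RefSeq start, an HNF4 core lies 109 bases before the start of Cyp3a11 and 116 bases before that of Cyp2c65, and a GATA site 97 bases before that of Cyp2c55. Cyp2b10 and Cyp3a44 held none of these letters in this window. The GENCODE start of the gene, used for the gene positions given further on, lies 110 bases upstream of the RefSeq start in Cyp3a11 and 38 bases upstream in Cyp2b10, so that their windows run into the gene as GENCODE annotates it and the HNF4 core of Cyp3a11 lies at its GENCODE start. For Cyp3a44 and Cyp2c55 both starts are the same, and for Cyp2c65 they are 9 bases apart. In a global alignment, 71.7% of the 265 aligned columns of Cyp3a11 and Cyp3a44 were identical, against 43.8% of 256 columns for Cyp3a11 and Cyp2b10, which are not close relatives. The HNF4 core occurred before 7 of the 31 matched members (22.6%) and before 2.19% of 32851 promoters of the same length. The GATA site occurred before 8 (25.8%, against 16.6% of all), the HNF1 half-site before 4 (12.9%, against 6.43%), the letters TATAAA before 10 (32.3%, against 12.4%), and TTTATG or TTTATT, bound by CDX factors, before 7 (22.6%, against 25.5%). A member was counted once if any of its listed promoters held the letters, whereas the 32851 were counted as single promoters, so that these shares are in unlike units. Such matches are a description of letters and not of bound sites.

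Between 8422645 and 11438539 reads per library were counted on genes, so that 3 counts were 0.246 to 0.421 CPM (counts scaled to library size, adjusted by the trimmed mean of M-values). Several libraries stood apart in genes that mark gut position. WT EtOH replicate 2 and fat-1 EtOH replicates 3 and 4 had summed levels of 5223, 12251 and 13259 CPM for 11 large intestine genes, whereas the other 13 libraries had 284 to 552 CPM. In fat-1 PF replicates 2 and 4, 8 genes of ileal bile acid handling summed to 496 and 444 CPM, against 2504 to 7035 CPM in the other 6 PF mice, and 14 genes of the proximal small intestine to 68413 and 68956 CPM, against 8063 to 25422 CPM. That proximal list summed to 3471 to 5412 CPM in the other 6 EtOH-fed mice, WT EtOH replicate 2 included, while replicates 3 and 4 of fat-1 EtOH had 58.1 and 81.7 CPM, and with EtOH in fat-1 mice 13 of its 14 genes were called lower (18.8% of all genes were). Pancreatic enzyme genes summed to at most 26.1 CPM and hepatocyte genes to 6.26 to 112 CPM, while a B-cell list reached 518 CPM in fat-1 EtOH replicate 5 and 2.50 to 105 CPM elsewhere. All 8 smooth muscle genes were called higher with EtOH in fat-1 mice (18.7% of all genes were), with sums of 958 to 1428 CPM in PF and 1962 to 4179 CPM in EtOH-fed mice, and the part of such differences in tissue makeup was not tested. The fits were therefore repeated without these 3 EtOH libraries, without these 2 fat-1 PF libraries, and without both sets. PF libraries are numbered 1 to 8 and EtOH libraries 9 to 16, so that library order and diet cannot be told apart.

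In WT PF mice the fatty acid hydroxylase Cyp4f14 had the highest level per length of all members, with a median of 730 CPM per kb of exon (lowest 533, highest 799). Cyp3a13, the highest gene of the drug-metabolizing Cyp3a subfamily, followed with 298 CPM per kb (213 to 369), and Cyp4v3, a fatty acid hydroxylase known from the eye, with 166 CPM per kb (72.9 to 209). The ranges of Cyp4f14 and of Cyp3a13 did not meet those of the genes after them. From rank 4 to rank 10 came Cyp2d26, Cyp3a25, Cyp4f16, Cyp2j6, Cyp4b1, Cyp51 and Cyp4f40, with medians of 96.2, 70.7, 69.7, 51.4, 50.8, 49.8 and 44.7 CPM per kb, and the ranges of each neighbouring pair overlapped. These 10 were the same genes when the longest transcript was used as length in place of all exons. Without regard to length, the members summed to 4941 ± 901 CPM in WT PF mice (mean ± SD, n = 4) and 3222 ± 617 CPM in WT EtOH mice (n = 3). In the fat-1 genotype they summed to 6566 ± 1764 CPM with PF (n = 4) and 3363 ± 850 CPM with EtOH (n = 5). Every fat-1 EtOH mouse was below every fat-1 PF mouse (1.95-fold lower on average; exact two-sided permutation test, p = 0.00794, the smallest that these groups allow). The WT groups overlapped (1.53-fold lower; exact permutation p = 0.0857, of which the smallest possible is 0.0286). A lower level in such tissue samples can come from fewer cells of a type or from less RNA per cell, and these cannot be told apart.

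The makeup of the P450 pool differed between mice. Cyp4f genes made up 40.3 to 49.7% of the summed CPM per kb in WT PF mice and Cyp3a genes 19.2 to 23.6%. Cyp2c genes made up 3.83 to 4.98% there and 3.24 to 26.2% in WT EtOH mice. In fat-1 EtOH mice the Cyp2c share ran from 3.89 to 64.9% and the Cyp4f share from 9.83 to 53.0%. The high Cyp2c shares were those of the 3 EtOH libraries with high large intestine genes.

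**Figure D1:**
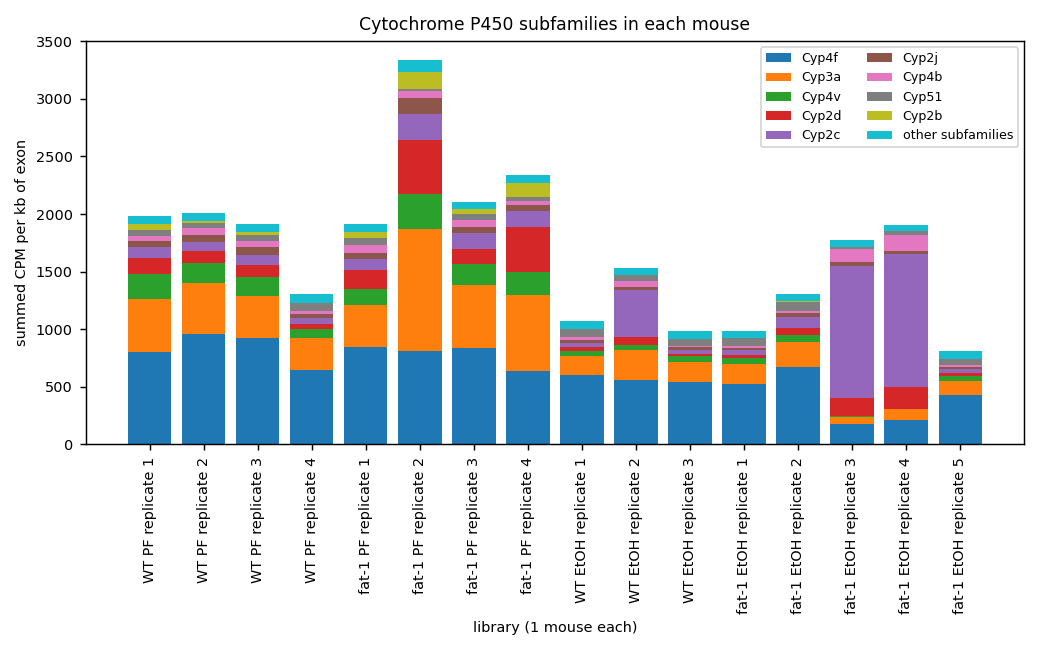
Summed CPM per kb of exon (vertical axis) of the cytochrome P450 subfamilies in each of the 16 mice (horizontal axis), as stacked bars that start at 0. Cyp4f (blue) and Cyp3a (orange) genes fill most of each PF bar, and Cyp2c genes (purple) fill 64.9% of the fat-1 EtOH bar in which they are highest.

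The number of members that differed depended on the comparison. With edgeR's quasi-likelihood test over all genes and Benjamini-Hochberg adjustment at 0.05, 24 of 41 members (58.5%) were called in fat-1 EtOH against fat-1 PF mice, where 37.4% of all genes were called. Of these, 9 were higher (18.7% of all genes were) and 15 lower (18.8% of all genes). Of the 41 members, 9 reached the limit of 10 counts in 3 libraries only through 1 diet, 6 through EtOH-fed and 3 through PF libraries, so that their membership itself rests on the diet in which they are high. No test of these 9 is given, although they are within the counts of all members. Of the 9 higher calls, 5 were of members that reached the limit only through EtOH-fed libraries, and of the 15 lower calls, 2 were of members that reached it only through PF libraries. Of the 31 members that reached it in both diets, 17 were called, 4 higher and 13 lower. In WT EtOH against WT PF mice 1 member was called, Cyp2b10, where 0.0796% of all genes were called and 0.0724% were called lower, and 13 members had an unadjusted p below 0.05 (14.1% of all genes), 6 higher, of which 3 reached the limit only through EtOH-fed libraries, and 7 lower. Averaged over genotypes, EtOH gave 24 calls, 10 higher and 14 lower (17 of them among those 31 members), with 35.9% of all genes called (18.3% higher and 17.6% lower). The median size of the log2 change, without its sign, was 1.15 over the members, 1.07 over the 31 that reached the limit in both diets and 0.39 over all genes in the fat-1 comparison, and 0.76, 0.63 and 0.21 in the WT comparison. The WT comparison rests on 3 EtOH mice and depended on the method: limma voom called 13 members there (20.7% of all genes) and a fit of the 2 WT groups alone called 8 (8.32% of all genes), among them 2 and 1 that reached the limit only through EtOH-fed libraries. Groups without overlap were counted as well. EtOH-fed WT mice were all above the WT PF mice in 5 members (12.2% of all genes), of which 2 reached the limit only through EtOH-fed libraries and the other 3 were Cyp20a1, Cyp39a1 and Cyp3a44. They were all below them in 9 members (12.1%). EtOH-fed fat-1 mice were all above fat-1 PF mice in 3 members (10.6%), of which 2 reached the limit only through EtOH-fed libraries and the other was Cyp7b1, and all below in 9 (13.4%). The members below reached the limit in both diets.

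**Figure D2:**
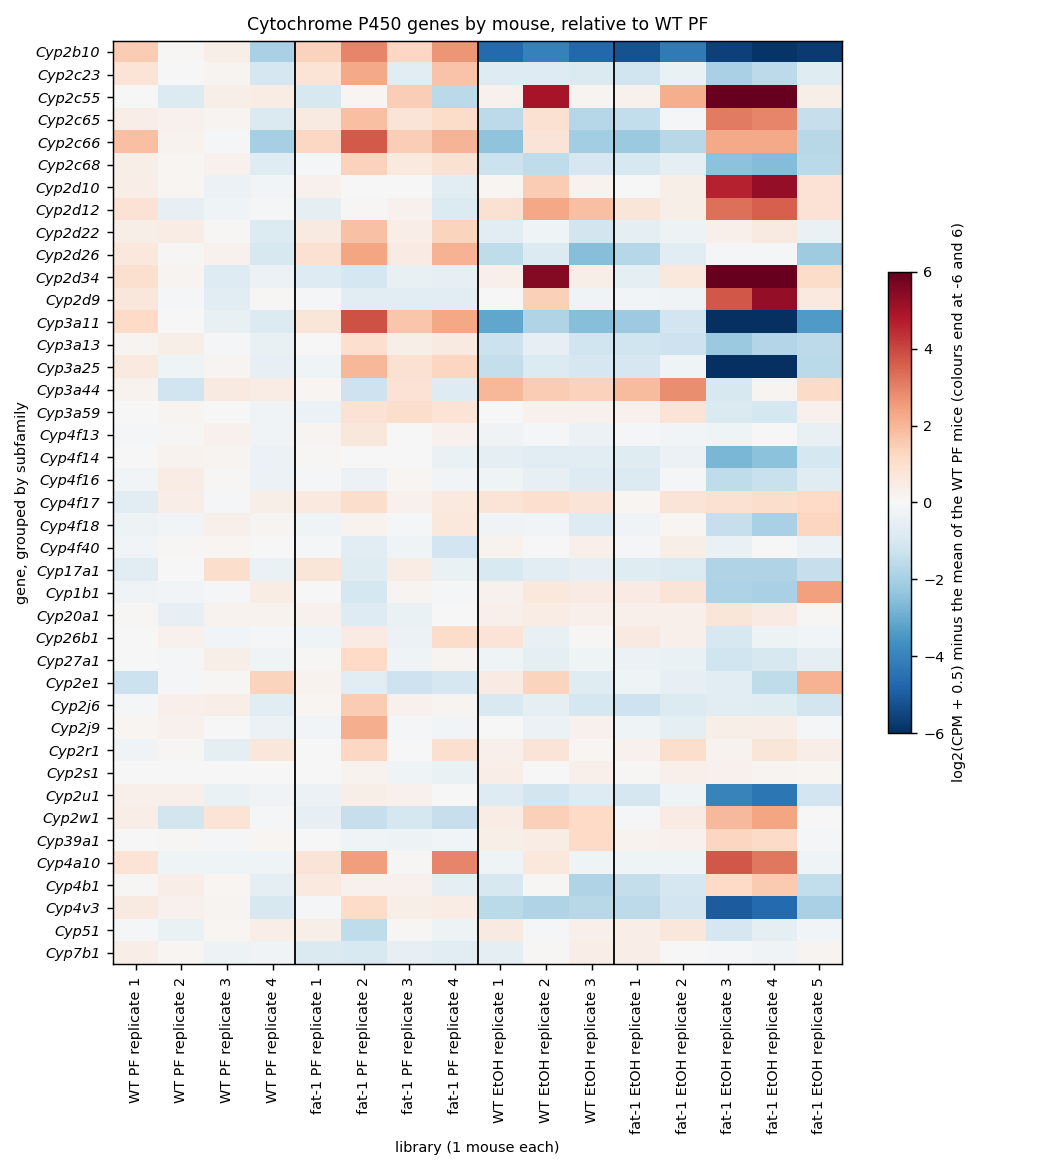
Level of each of the 41 members (rows, grouped by subfamily) in each mouse (columns), as log2(CPM + 0.5) minus the mean of the WT PF mice, red for higher and blue for lower. Cyp2b10 and Cyp3a11 are blue in all 8 EtOH columns, and Cyp2c55 and Cyp2d34 are deep red in WT EtOH replicate 2 and fat-1 EtOH replicates 3 and 4.

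In all 8 EtOH-fed mice, 5 members were lower than in every one of the 8 PF mice: Cyp2b10, Cyp3a11, Cyp3a13, Cyp4v3 and Cyp27a1 (4.66% of all genes lay below in this way). No member was above every PF mouse in all 8, against 3.13% of all genes. With the 3 EtOH libraries that stood apart set aside, the other 5 EtOH-fed mice were also below every PF mouse in Cyp2j6 and Cyp4b1, and above every PF mouse in Cyp3a44. That made 7 members below (7.49% of all genes) and 1 above (5.1% of all genes).

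Cyp2b10 (chr7:25897620-25926624, + strand; gene positions are those of GENCODE M21 on GRCm38), the drug-oxidizing enzyme that CAR induces, was the member with the largest fall. Its level was 116, 41.1, 50.2 and 9.87 CPM in WT PF mice and 1.07, 1.89 and 1.01 CPM in WT EtOH mice. In fat-1 PF mice it was 105, 308, 94.2 and 251 CPM and in fat-1 EtOH mice 0.570, 1.62, 0.328, 0.178 and 0.257 CPM. The highest EtOH-fed mouse, a WT mouse, was below the lowest PF mouse, WT PF replicate 4. The fall was 41.0-fold in the mean of WT mice (log2 fold change -5.37 ± 0.86 (SE), adjusted p = 0.0388) and 321-fold in fat-1 mice (log2 fold change -8.29 ± 0.78 (SE), adjusted p = 0.000157). The fat-1 call was made in each of the 26 alternative fits, whereas the WT call was lost with the looser filter, with the replicate number as a block, and when any 1 of 10 libraries was left out (WT PF replicate 1, 2 or 3, fat-1 PF replicate 1 or 4, any WT EtOH mouse, or fat-1 EtOH replicate 1 or 5), with adjusted p of 0.00257 to 0.421 and log2 fold changes of -5.72 to -4.67 over the 16 fits that left out 1 mouse. Without the 3 EtOH libraries no member was called in WT mice by edgeR (0.189% of all genes), and the smallest adjusted p of a member was 0.0595. Of the 75-base windows of its exons, 2.76% also occur in Cyp2b13 or Gm45225. Summed proximal small intestine genes were also lower in every EtOH-fed than in every PF mouse, and their part in this result was not tested.

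The 5 Cyp3a genes, which oxidize drugs and steroids and lie on chromosome 5, did not move together. Their summed level was 1111 CPM in WT PF and 553 CPM in WT EtOH mice on average, 2.01-fold lower and without overlap (exact permutation p = 0.0571). In fat-1 mice it was 1962 and 372 CPM, 5.27-fold lower (exact permutation p = 0.00794, the smallest possible). Cyp3a11, Cyp3a13 and Cyp3a25 were called lower in fat-1 EtOH mice, and Cyp3a44 was called higher averaged over genotypes. Cyp3a59 reached the count limit only through PF libraries, so that no test of it is given, and ranged from 0.416 to 0.679 CPM with PF and 0.537 to 0.756 CPM with EtOH in WT mice, and from 0.318 to 1.64 CPM with PF and 0 to 1.36 CPM with EtOH in fat-1 mice.

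Cyp3a13 (chr5:137892932-137921619, - strand) was at 962, 1092, 802 and 630.2 CPM in WT PF and 348, 615 and 375 CPM in WT EtOH mice. It was at 850.2, 1723, 1072 and 1246 CPM in fat-1 PF and 374, 362, 181, 253 and 283 CPM in fat-1 EtOH mice (log2 fold change -2.07 ± 0.26 (SE), adjusted p = 0.000248). The groups did not overlap in either genotype, and the fall in WT mice was not called (log2 fold change -0.97 ± 0.30 (SE), adjusted p = 0.195). With both sets of libraries left out it was called in WT mice too, with a log2 fold change of -1.26 (adjusted p = 0.0271).

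Cyp3a11 (chr5:145854426-145879964, - strand), a PXR target, was at 149, 65.4, 47.2 and 35.5 CPM in WT PF and 6.98, 17.7 and 10.3 CPM in WT EtOH mice. The fat-1 PF mice had 105, 909, 206 and 317 CPM and the fat-1 EtOH mice 13.8, 28.2, 0.410, 0.178 and 5.56 CPM. Neither pair of groups overlapped, and the 2 lowest values were those of fat-1 EtOH replicates 3 and 4. Its change was called in fat-1 mice (log2 fold change -5.32 ± 1.03 (SE), adjusted p = 0.00179) and not in WT mice (log2 fold change -2.67 ± 1.14 (SE), adjusted p = 0.318). Without the 3 EtOH libraries the fat-1 change was -4.55 (adjusted p = 0.00481).

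Cyp3a25 (chr5:145977194-146009618, - strand) was at 227, 126.4, 168 and 107 CPM in WT PF, 55.2, 84.2 and 75.5 CPM in WT EtOH, 125, 604, 287 and 375 CPM in fat-1 PF and 75.6, 127, 0.574, 1.70 and 48.2 CPM in fat-1 EtOH mice. It was nearly absent from fat-1 EtOH replicates 3 and 4, and fat-1 EtOH replicate 2 was just above the lowest fat-1 PF mouse. The fall was called in fat-1 mice (log2 fold change -2.78 ± 0.95 (SE), adjusted p = 0.0336), and the call was lost without fat-1 PF replicate 2, fat-1 PF replicate 4 or fat-1 EtOH replicate 5, with adjusted p up to 0.0913 over the 16 fits. The call was also lost with the looser filter, with the replicate number as a block, with only the 2 groups in the fit, without the 2 fat-1 PF libraries (-2.01, adjusted p = 0.217) and without both sets. Of its 75-base windows, 12.3% are shared with Cyp3a59 or Cyp3a57, so that its reads and those of Cyp3a59 cannot be fully told apart.

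Cyp3a44 (chr5:145773983-145805874, - strand), a neighbour of Cyp3a11, went the other way. WT PF mice had 7.98, 2.72, 10.3 and 9.77 CPM and WT EtOH mice 28.6, 20.7 and 18.9 CPM. In fat-1 PF mice it was 7.63, 2.67, 12.8 and 3.80 CPM and in fat-1 EtOH mice 26.8, 50.5, 3.36, 7.94 and 16.1 CPM. The WT groups did not overlap, and in fat-1 mice 3 of 5 EtOH-fed mice were above every PF mouse while replicates 3 and 4 were within the PF range. Averaged over genotypes the gene was called higher (log2 fold change 1.60 ± 0.49 (SE), adjusted p = 0.0216), which missed the threshold without WT EtOH replicate 1 (adjusted p = 0.0523), with the replicate number as a block or without the 2 fat-1 PF libraries (adjusted p of at most 0.100). In fat-1 mice alone the log2 fold change was 1.63 (adjusted p = 0.0680), and without the 3 EtOH libraries it was 2.23 (adjusted p = 0.0136). Cyp3a41a, Cyp3a41b, Cyp3a63-ps and Cyp3a11 share 11.02% of its 75-base windows with it.

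**Figure D3:**
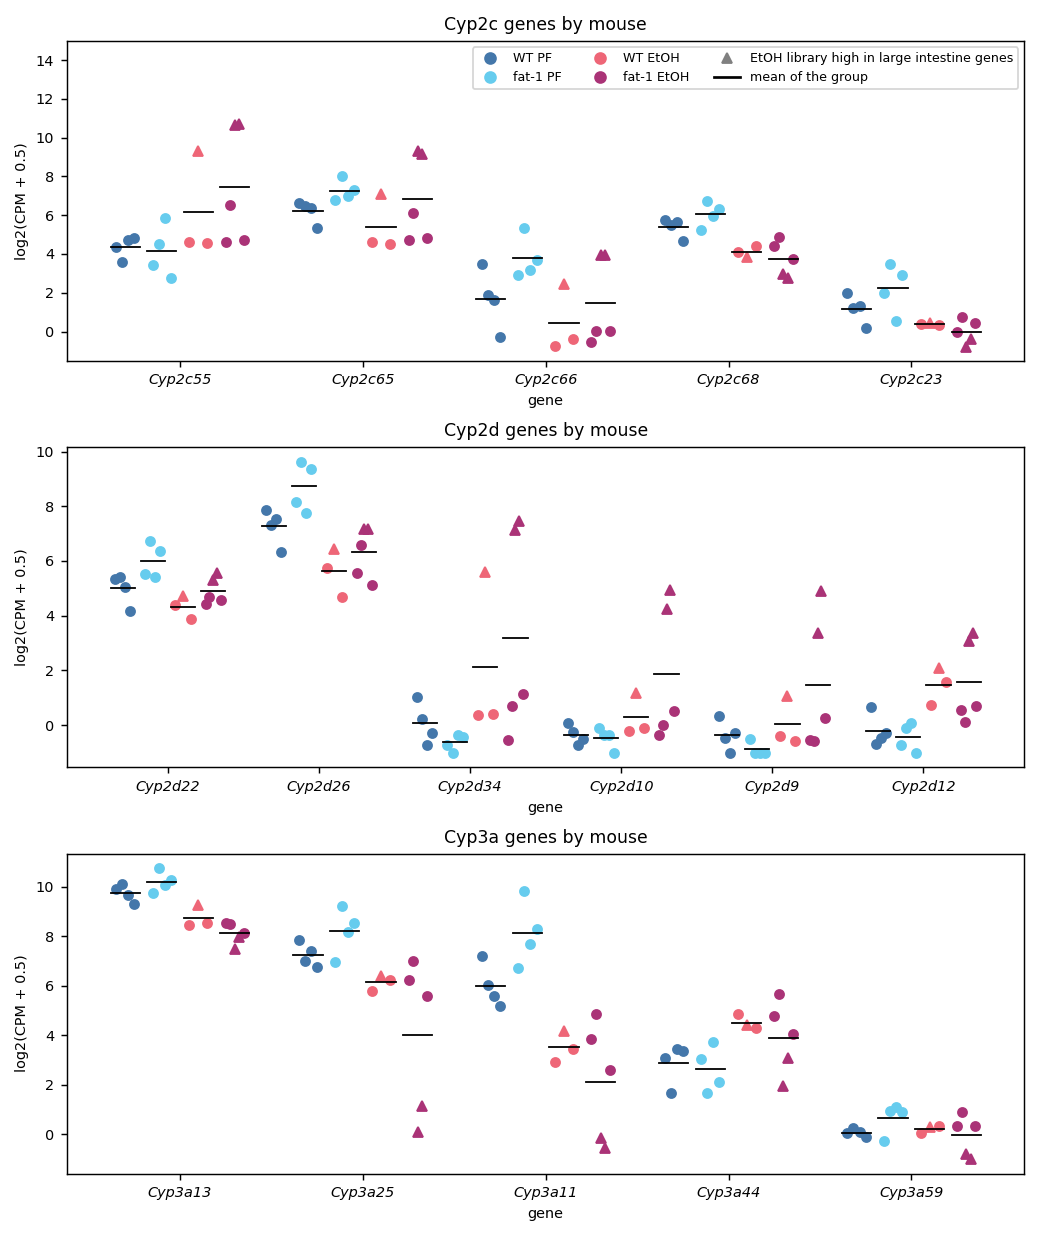
Level of the Cyp2c, Cyp2d and Cyp3a members (horizontal axis) in each mouse as log2(CPM + 0.5) (vertical axis), coloured by group, with a line at each group mean and triangles for the 3 EtOH libraries with high large intestine genes. The triangles are the highest points of Cyp2c55, Cyp2d34, Cyp2d10, Cyp2d9 and Cyp2d12, and all EtOH-fed mice lie below all PF mice in Cyp3a13 and Cyp3a11.

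The 5 Cyp2c genes, which oxidize drugs and turn arachidonic acid into epoxides, also split. In fat-1 EtOH mice Cyp2c55 was called higher, Cyp2c68 was called lower, and Cyp2c65 and Cyp2c66 were not called. All but Cyp2c23 lie in 1 stretch of chromosome 19.

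Cyp2c55 (chr19:39007019-39042693, + strand) was at 20.2, 11.3, 26.1 and 27.9 CPM in WT PF and 10.3, 22.0, 57.0 and 6.26 CPM in fat-1 PF mice. WT EtOH mice had 23.995, 639 and 23.0 CPM and fat-1 EtOH mice 24.3, 93.1, 1615, 1693 and 26.2 CPM. The high values were those of the 3 libraries with high large intestine genes, and fat-1 EtOH replicate 2 was above every PF mouse at a lower level. The gene was called higher in fat-1 mice (log2 fold change 4.86 ± 1.53 (SE), adjusted p = 0.0232), and without the 3 EtOH libraries the log2 fold change was 1.05 (adjusted p = 0.263). Leaving out fat-1 PF replicate 1, 2 or 4 alone also moved the adjusted p above 0.05, to at most 0.0621, and the call was lost as well with limma voom, with only the 2 groups in the fit, without the 2 fat-1 PF libraries (4.36, adjusted p = 0.169) and without both sets (0.54, adjusted p = 0.649).

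Its neighbour Cyp2c65 (chr19:39061015-39093944, + strand) was at 40.4 to 97.9 CPM in WT PF and 108 to 255 CPM in fat-1 PF mice. It was at 24.4, 137 and 22.3 CPM in WT EtOH and 26.2, 68.6, 636, 565 and 27.7 CPM in fat-1 EtOH mice. In the 3 EtOH libraries that stood apart it was within or above the PF range, and in 4 of the other 5 EtOH-fed mice it was below every PF mouse. Over all libraries it was not called in fat-1 mice (log2 fold change 0.71), and without the 3 libraries it was called lower, at -1.95 (adjusted p = 0.00733). Cyp2c66, the next gene on the chromosome, was within the PF range in the 3 libraries and near 0 in the other 5 EtOH-fed mice, with 0.190, 0.510, 15.0, 15.0 and 0.513 CPM in fat-1 EtOH mice and log2 fold changes of -1.44 with and -5.29 (adjusted p = 0.00607) without these libraries. Cyp2c65 and Cyp2c66 share 11.38 and 10.8% of their 75-base windows with each other.

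Cyp2c68 was at 52.7, 45.2, 49.1 and 25.05 CPM in WT PF and 16.7, 13.9 and 20.5 CPM in WT EtOH mice. In fat-1 PF mice it was at 37.5, 107, 62.1 and 78.9 CPM and in fat-1 EtOH mice at 20.7, 28.7, 7.22, 6.33 and 13.1 CPM. EtOH-fed mice were below PF mice of their genotype without overlap, with fat-1 EtOH replicates 3 and 4 lowest (log2 fold change -2.23 ± 0.41 (SE), adjusted p = 0.00137 in fat-1 mice). With both sets of libraries left out the call was lost (-1.24, adjusted p = 0.0613). This symbol shares 28.5% of its 75-base windows with Cyp2c40, Cyp2c67 and Cyp2c69, so that the gene behind its reads is uncertain. Cyp2c23, an arachidonic acid epoxygenase, was low throughout, at 3.497, 1.81, 2.00 and 0.624 CPM in WT PF, 0.806, 0.840 and 0.756 CPM in WT EtOH, 3.498, 10.53, 0.957 and 6.996 CPM in fat-1 PF and 0.475, 1.19, 0.0820, 0.268 and 0.855 CPM in fat-1 EtOH mice. The fat-1 groups overlapped, since fat-1 PF replicate 3 was at the level of the EtOH-fed mice. It reached the count limit only through PF libraries, so that no test of it is given.

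Of the 6 Cyp2d genes, a drug-oxidizing subfamily on chromosome 15, 2 were called lower in the EtOH-fed fat-1 group. The other 4 reached the count limit only through EtOH-fed libraries, so that no test of them is given. They were near 0 in PF mice, and most of their reads came from the 3 libraries that stood apart. Cyp2d34 (chr15:82615965-82620946, - strand) was at 1.53, 0.679, 0.111 and 0.312 CPM in WT PF, 0.106, 0, 0.273 and 0.245 CPM in fat-1 PF, 0.806, 47.4 and 0.840 CPM in WT EtOH and 0.190, 1.11, 139, 177 and 1.71 CPM in fat-1 EtOH mice. In fat-1 mice 3705 reads with EtOH stood against 5 reads with PF.

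Cyp2d10 had 0.546, 0.340, 0.111 and 0.208 CPM in WT PF and 0.424, 0.281, 0.273 and 0 CPM in fat-1 PF mice. With EtOH it had 0.358, 1.78 and 0.420 CPM in WT and 0.285, 0.510, 18.5, 29.8 and 0.941 CPM in fat-1 mice. Replicates 3 and 4 of the fat-1 EtOH group were far above all others. Cyp2d9 showed 0.765, 0.226, 0 and 0.312 CPM in WT PF, 0.212, 0, 0 and 0 CPM in fat-1 PF, 0.269, 1.57 and 0.168 CPM in WT EtOH and 0.190, 0.170, 9.92, 29.3 and 0.684 CPM in fat-1 EtOH mice, that is 461 reads against 2 in fat-1 mice. It is known in liver as a male-type testosterone hydroxylase. No PF library had 10 counts of Cyp2d9 or Cyp2d10. Cyp2d12 showed 1.09, 0.113, 0.222 and 0.312 CPM in WT PF, 0.106, 0.421, 0.547 and 0 CPM in fat-1 PF, 1.16, 3.78 and 2.52 CPM in WT EtOH and 0.950, 0.595, 8.04, 9.90 and 1.11 CPM in fat-1 EtOH mice, with 1 PF library at 10 counts or more. Cyp2d9 and Cyp2d10 were below the filter without these libraries, and 12.9 and 22.3% of their 75-base windows are shared with other Cyp2d genes or neighbouring loci.

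The 2 called Cyp2d genes were high in PF mice. Cyp2d26 (chr15:82790101-82794294, - strand) was at 235, 160.5, 184 and 79.6 CPM in WT PF and 53.1, 87.1 and 25.4 CPM in WT EtOH mice. In fat-1 mice it was at 286, 789.6, 216 and 659.6 CPM with PF and 46.8, 94.8, 144, 143 and 34.3 CPM with EtOH (log2 fold change -2.40 ± 0.52 (SE), adjusted p = 0.00341). The fat-1 groups did not overlap and the WT groups met only through WT PF replicate 4. The fall was not called without the 2 fat-1 PF libraries, which were its highest, at -1.44 (adjusted p = 0.0918). Cyp2d22 was at 39.7, 42.4, 33.0 and 17.6 CPM in WT PF, 45.7, 106, 42.2 and 81.4 CPM in fat-1 PF, 20.2, 25.9 and 14.3 CPM in WT EtOH and 21.2, 25.3, 38.6, 46.7 and 23.5 CPM in fat-1 EtOH mice. Its fat-1 groups overlapped in 1 mouse, fat-1 EtOH replicate 4, and it was called lower (log2 fold change -1.15 ± 0.33 (SE), adjusted p = 0.0154). The call was lost with the replicate number as a block, without fat-1 PF replicate 2, without the 2 fat-1 PF libraries (-0.50, adjusted p = 0.317) and without both sets.

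Among the other members of families CYP1 and CYP2, Cyp2j6 and Cyp2s1 were called and 5 were not, and Cyp2w1 reached the count limit only through EtOH-fed libraries. Cyp2j6, which makes epoxides of arachidonic acid, was at 163, 208, 223 and 111 CPM in WT PF and 89.98, 119 and 82.7 CPM in WT EtOH mice. In fat-1 PF mice it was at 186, 491, 207 and 189 CPM and in fat-1 EtOH mice at 72.3, 96.3, 108, 101 and 80.1 CPM, without overlap (log2 fold change -1.55 ± 0.28 (SE), adjusted p = 0.00125). Its call held in all 27 alternative fits. Cyp2w1, a member found in fetal colon and colon tumours, was at 1.20, 0.113, 1.78 and 0.727 CPM in WT PF, 0.424, 0, 0.137 and 0 CPM in fat-1 PF, 1.25, 3.04 and 2.52 CPM in WT EtOH and 0.760, 1.36, 4.51, 6.16 and 0.770 CPM in fat-1 EtOH mice. These were 157 reads against 5 in the fat-1 groups, and no test of Cyp2w1 is given. Cyp2s1 differed little, from 84.0 to 85.7 CPM in WT PF to 82.3 to 111 CPM in WT EtOH mice and from 65.2 to 97.1 to 90.2 to 104 CPM in fat-1 mice, and was called averaged over genotypes (log2 fold change 0.25 ± 0.09 (SE), adjusted p = 0.0358). This call was lost in 9 of 26 alternative fits, 8 of which left out 1 mouse.

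Cyp2e1, the P450 enzyme that oxidizes ethanol itself, was not called in either genotype. It was at 4.26, 10.1, 11.7 and 28.4 CPM in WT PF and 15.9, 29.1 and 6.55 CPM in WT EtOH mice (log2 fold change 0.33 ± 0.82 (SE), adjusted p = 0.887). In fat-1 PF mice it was at 13.04, 6.88, 4.37 and 5.28 CPM and in fat-1 EtOH mice at 9.12, 7.65, 6.72, 3.57 and 49.1 CPM (log2 fold change 1.03 ± 0.76 (SE), adjusted p = 0.293). All groups overlapped. The highest value was that of fat-1 EtOH replicate 5, in which the summed level of 5 adipocyte genes was 507 CPM, against 70.4 to 277 CPM in the other 15 mice. Among PF mice, WT PF replicate 4 was highest in both, with 273 CPM for that list and 28.4 CPM for Cyp2e1. In other mice the order differed, since the list summed to 277 CPM in WT EtOH replicate 1, where Cyp2e1 was at 15.9 CPM, to 176 CPM in WT EtOH replicate 2 with Cyp2e1 at 29.1 CPM, and to 206 and 209 CPM in fat-1 EtOH replicates 3 and 4, which had the lowest Cyp2e1 of their group. The part of fat tissue in these values was not tested. Cyp1b1, which oxidizes aromatic compounds and estrogens, was at 4.56, 5.70, 0.492, 0.446 and 19.7 CPM in fat-1 EtOH mice, lowest in replicates 3 and 4, and at 1.26 to 3.55 CPM in fat-1 PF mice (log2 fold change 1.20, adjusted p = 0.250). Without the 3 EtOH libraries it was called higher, at 1.91 (adjusted p = 0.0120). Cyp2u1, which hydroxylates arachidonic acid, had 2.62 and 1.96 CPM in fat-1 EtOH replicates 3 and 4 and 22.2 to 64.0 CPM in the other 14 mice, and was called lower in fat-1 mice without the 3 EtOH libraries (-0.81, adjusted p = 0.0282, against an adjusted p of 0.0637 with all). Cyp2j9 and the vitamin D 25-hydroxylase Cyp2r1 had log2 fold changes of -0.90 and -0.10 in fat-1 mice and were not called.

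The CYP4 enzymes hydroxylate the ends of fatty acids, leukotrienes and vitamins E and K. Of 6 Cyp4f genes, Cyp4f14, Cyp4f16 and Cyp4f13 were called lower in fat-1 EtOH mice and Cyp4f18 and Cyp4f40 were not called. Cyp4f17 reached the count limit only through EtOH-fed libraries, so that no test of it is given, and ranged from 0.109 to 0.792 CPM with PF and 1.18 to 1.47 CPM with EtOH in WT mice, and from 0.683 to 1.54 CPM with PF and 0.570 to 1.71 CPM with EtOH in fat-1 mice. Cyp4f14 (chr17:32905070-32917342, - strand), the highest member, was at 1644, 1932, 1886 and 1289.6 CPM in WT PF and 1154, 1076 and 1049.6 CPM in WT EtOH mice, without overlap (log2 fold change -0.63 ± 0.43 (SE), adjusted p = 0.527). It was at 1726, 1703, 1706 and 1278 CPM in fat-1 PF and 1021, 1288, 250.1, 306 and 792 CPM in fat-1 EtOH mice (log2 fold change -1.13 ± 0.37 (SE), adjusted p = 0.0286). Fat-1 EtOH replicates 3 and 4 were lowest and replicate 2 was within the PF range. The fat-1 call was lost when fat-1 PF replicate 1, 2 or 3 or fat-1 EtOH replicate 4 was left out, with adjusted p up to 0.0656, and also with limma voom, with only the 2 groups in the fit, without the 2 fat-1 PF libraries (-1.22, adjusted p = 0.0978) or both sets (-0.72, adjusted p = 0.0516).

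Cyp4f16 was at 195, 298, 233 and 172 CPM in WT PF, 212, 171, 235 and 195 CPM in fat-1 PF, 183, 157 and 127 CPM in WT EtOH and 125, 199.9, 76.2, 87.4 and 134 CPM in fat-1 EtOH mice (log2 fold change -0.71 ± 0.24 (SE), adjusted p = 0.0333 in fat-1 mice). Its call was lost without the 3 EtOH libraries (-0.38, adjusted p = 0.201) and in 6 of 16 fits that left out 1 mouse (fat-1 PF replicate 1, 3 or 4 or fat-1 EtOH replicate 1, 3 or 4). It was lost as well with limma voom, with upper-quartile scaling, with only the 2 groups in the fit, without the 2 fat-1 PF libraries (-0.84, adjusted p = 0.0846) and without both sets (-0.53, adjusted p = 0.180). Cyp4f40 was not called with all libraries by edgeR. It was called higher in fat-1 mice in 2 alternative fits, limma voom among them, and in 1 fit that left out 1 mouse (log2 fold changes of 0.58 to 0.65). It was at 98.3, 114, 119 and 108 CPM in WT PF, 99.8, 68.9, 92.1 and 49.8 CPM in fat-1 PF, 129, 107 and 136 CPM in WT EtOH and 105, 141, 82.5, 110.3 and 86.6 CPM in fat-1 EtOH mice, and all groups of 1 genotype overlapped (log2 fold change 0.43 ± 0.19 (SE), adjusted p = 0.0846 in fat-1 mice). In fat-1 mice Cyp4f13 averaged 76.7 ± 16.2 CPM with PF (mean ± SD, n = 4) and 54.5 ± 6.29 CPM with EtOH (n = 5), where the highest EtOH-fed and the lowest PF mouse were both at 62.3 CPM (log2 fold change -0.49 ± 0.14 (SE), adjusted p = 0.0122). Its call was lost with upper-quartile scaling, without fat-1 PF replicate 2, without both fat-1 PF libraries that stood apart and without both sets.

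Cyp4v3 (chr8:45304944-45333216, - strand) was at 795, 661, 606 and 278 CPM in WT PF and 180.4, 156 and 173 CPM in WT EtOH mice. It was at 503, 1161, 688 and 745 CPM in fat-1 PF and 181, 243, 16.5, 21.2 and 140.4 CPM in fat-1 EtOH mice (log2 fold change -2.68 ± 0.64 (SE), adjusted p = 0.00557). Every EtOH-fed mouse was below every PF mouse, and fat-1 EtOH replicates 3 and 4 were lowest. The fat-1 call was lost without the 2 fat-1 PF libraries (-2.29, adjusted p = 0.0620), and with both sets left out the fall was called in both genotypes, at -1.65 (adjusted p = 0.0261) in fat-1 and -1.72 (adjusted p = 0.0468) in WT mice. A further annotated locus, Gm45753, overlaps it on the same strand and shares 6.40% of its 75-base windows.

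Cyp4b1 (chr4:115624725-115647723, - strand), a fatty acid hydroxylase, changed its sign with the libraries. WT PF mice had 113, 144, 116 and 72.2 CPM, fat-1 PF mice 160.5, 129, 129.7 and 74.99 CPM, WT EtOH mice 54.7, 115 and 31.0 CPM and fat-1 EtOH mice 40.2, 53.4, 249.6, 319.6 and 38.1 CPM. In the 5 EtOH-fed mice without high large intestine genes it was below every PF mouse, and in fat-1 EtOH replicates 3 and 4 it was above every other mouse. The log2 fold change in fat-1 mice was 0.18 (adjusted p = 0.829) with all libraries and -1.47 (adjusted p = 0.00546) without those 3. Cyp4a10, which PPAR alpha induces, was detected in fat-1 EtOH replicates 3 and 4 at 7.38 and 4.91 CPM and at 0 CPM in the other 3 mice of that group, and at 0.530, 2.95, 0.137 and 4.05 CPM in fat-1 PF mice, so that no single change describes it (adjusted p = 0.834).

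Of the members that act on sterols, bile acids, steroids and retinoids, Cyp7b1, Cyp39a1 and Cyp27a1 were called in fat-1 EtOH mice. Cyp7b1, an oxysterol 7-alpha-hydroxylase of bile acid synthesis, was low and rose within a narrow range. It was at 2.51, 1.92, 1.33 and 1.45 CPM in WT PF and 1.07, 1.89 and 2.44 CPM in WT EtOH mice (adjusted p = 0.997 by edgeR). In fat-1 PF mice it was at 0.742, 0.702, 1.09 and 0.982 CPM and in fat-1 EtOH mice at 2.47, 1.70, 1.64, 1.43 and 2.05 CPM, without overlap (log2 fold change 1.07 ± 0.31 (SE), adjusted p = 0.0144). The WT groups overlapped. The fat-1 call was lost with limma voom, without the 2 fat-1 PF libraries (1.03, adjusted p = 0.104) and without both sets (1.20, adjusted p = 0.107). Cyp39a1, which acts on 24-hydroxycholesterol, was at 6.78 to 8.11 CPM in WT PF and 9.67 to 17.6 CPM in WT EtOH mice, without overlap, and at 6.01 to 7.63 and 7.10 to 18.6 CPM in the fat-1 groups. It was called higher in fat-1 mice (log2 fold change 0.86 ± 0.28 (SE), adjusted p = 0.0266), but not without the 3 EtOH libraries (0.34, adjusted p = 0.219) nor in 9 others of the 27 alternative fits. Averaged over genotypes it was also called higher (log2 fold change 0.81), and that call was lost in 0 of 26 alternative fits.

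Cyp27a1, the mitochondrial sterol 27-hydroxylase, was at 58.0, 55.7, 74.97 and 51.3 CPM in WT PF and 49.3, 39.0 and 48.8 CPM in WT EtOH mice. Fat-1 PF mice had 61.5, 137, 49.9 and 65.5 CPM and fat-1 EtOH mice 46.5, 44.8, 26.0, 30.3 and 40.7 CPM (log2 fold change -1.06 ± 0.26 (SE), adjusted p = 0.00631). All EtOH-fed mice were below all PF mice, by a small margin. The call was lost without the 2 fat-1 PF libraries (-0.56, adjusted p = 0.0967) and without both sets. Cyp51, the lanosterol demethylase of cholesterol synthesis, was not called. It was at 205, 166, 235 and 288 CPM in WT PF, 321, 209 and 269 CPM in WT EtOH, 279.8, 76.2, 227 and 178 CPM in fat-1 PF and 287, 348, 110.5, 145 and 197 CPM in fat-1 EtOH mice, with all groups overlapping (log2 fold change 0.19 ± 0.36 (SE), adjusted p = 0.699 in fat-1 mice). Its gene body overlaps that of Akap9 on the other strand.

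Cyp17a1, the 17-alpha-hydroxylase of steroid hormone synthesis, was near the limit of detection, at 0.656, 1.24, 3.11 and 0.831 CPM in WT PF, 0.448, 0.630 and 0.756 CPM in WT EtOH, 2.44, 0.561, 1.91 and 0.859 CPM in fat-1 PF and 0.570, 0.510, 0, 0 and 0.171 CPM in fat-1 EtOH mice. No EtOH-fed library had 10 counts of it, so that it had to be higher with PF to be a member, and no test of it is given. The retinoic acid hydroxylase Cyp26b1 was not called (log2 fold change -0.46 in fat-1 and 0.27 in WT mice). Cyp20a1, whose substrate is not known, was called higher in fat-1 mice (log2 fold change 0.61 ± 0.22 (SE), adjusted p = 0.0414) and lost this call in 13 of 27 alternative fits, among them that without the 3 EtOH libraries (0.45, adjusted p = 0.181).

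Cyp20a1, Cyp2c55 and Cyp39a1 reached the count limit in both diets. In fat-1 mice they lost their higher calls without the 3 EtOH-fed libraries that stood apart. Without these 3 libraries, 23 of 39 members tested were called in fat-1 EtOH against fat-1 PF mice, 5 higher and 18 lower, and 29.7% of all genes were called (13.9% higher and 15.8% lower). Of the 4 members that reached the count limit in both diets and were called higher with all libraries, Cyp7b1 was among the 5, with Cyp1b1 and Cyp3a44. The other 2 of the 5 reached the limit only through EtOH-fed libraries. Without the 2 fat-1 PF libraries, 6 members were called (13.9% of all genes), all lower (7.95% of all genes). They were Cyp2b10, Cyp3a11, Cyp3a13, Cyp2j6 and Cyp2c68, and 1 that reached the limit only through PF libraries. With both sets left out, 9 of 38 members were called in the fat-1 and 5 in the WT comparison, again all lower. The 9 were Cyp2b10, Cyp3a11, Cyp3a13, Cyp2j6, Cyp4b1, Cyp4v3 and Cyp2d26, the same member, and Cyp2c66, which was also among the 18 above. Without the 3 EtOH libraries Cyp2c66 reached the limit only through PF libraries, so that these calls of it are no test. Of all genes, 11.9% were then called in fat-1 mice (7.59% lower) and 3.41% in WT mice (1.76% lower). Called in both genotypes were then Cyp2b10, Cyp3a13, Cyp2j6, Cyp4b1 and Cyp4v3.

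**Figure D4:**
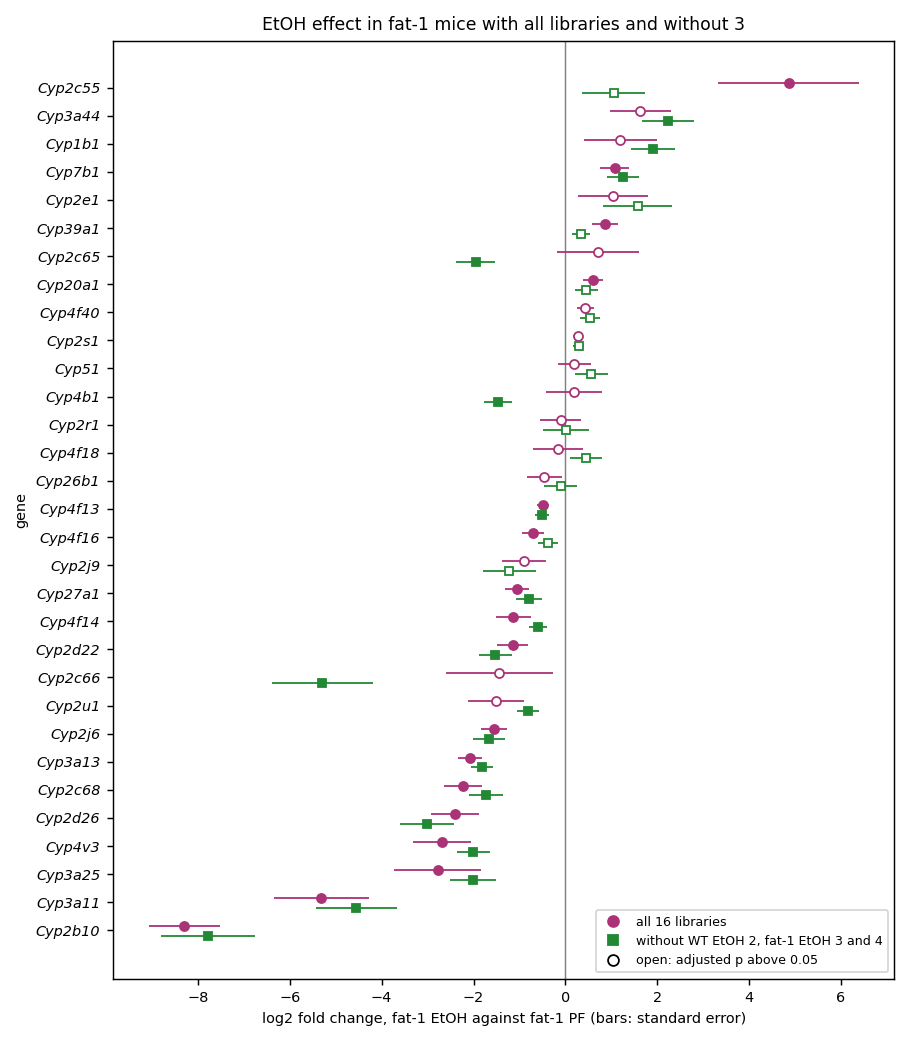
Log2 fold change of fat-1 EtOH against fat-1 PF mice (horizontal axis, bars show the standard error) for each of the 31 members that reached the count limit in both diets (vertical axis, in order of the change), with all 16 libraries (circles) and without WT EtOH replicate 2 and fat-1 EtOH replicates 3 and 4 (squares), where filled symbols have an adjusted p of 0.05 or less. Cyp2c65 and Cyp4b1 lie right of 0 with all libraries and left of it without the 3. Without the 3, Cyp2c66 reached the count limit only through PF libraries, so that its square is no test.

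Between genotypes no member was called. In fat-1 PF against WT PF mice, edgeR called no member (0.0% of all genes), and neither did DESeq2 (1.37% of all genes) or limma voom (0.217%). At an unadjusted p below 0.05 there were 8 members, 5 higher and 3 lower (12.7% of all genes). The 3 members with the smallest unadjusted p were Cyp7b1 (log2 fold change -1.03 ± 0.32 (SE), adjusted p = 0.201), Cyp2b10 (log2 fold change 1.80 ± 0.59 (SE), adjusted p = 0.213) and Cyp2d22 (log2 fold change 1.05 ± 0.36 (SE), adjusted p = 0.227). Without the 2 fat-1 PF libraries the change was -0.99 for Cyp7b1, 0.87 for Cyp2b10 and 0.40 for Cyp2d22. The groups did not overlap in 2 members, Cyp7b1 and Cyp2c65 (6.87% of all genes). Cyp7b1 was lower in all 4 fat-1 PF than in all 4 WT PF mice (exact permutation p = 0.0286, the smallest possible). Fat-1 PF replicates 2 and 4 were above the other 6 PF mice in 15 of the 41 members (17.9% of all genes), among them Cyp2b10, Cyp3a11, Cyp3a13, Cyp3a25, Cyp2d26 and Cyp2c65, and they are the libraries with the highest proximal small intestine genes.

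In fat-1 EtOH against WT EtOH mice no member was called by edgeR, DESeq2 or limma voom (0.00724, 0.0362 and 0.00724% of all genes), and 3 had an unadjusted p below 0.05 (4.86% of all genes). Of these, 2 reached the count limit only through EtOH-fed libraries, so that no test of them is given. The other was Cyp3a13 (log2 fold change -0.62 ± 0.28 (SE), adjusted p = 0.757), with -0.09 without the 3 EtOH libraries. No member's EtOH groups were free of overlap (2.45% of all genes were). The interaction of genotype and EtOH, which tests whether the effect of EtOH differed between fat-1 and WT mice, was called for no member by any of the 3 tools (0.0% of all genes with each) and had an unadjusted p below 0.05 for 3 (8.26% of all genes). These were Cyp3a13 (difference of log2 fold changes -1.11, unadjusted p = 0.0127), Cyp2b10 (-2.92, unadjusted p = 0.0254) and Cyp7b1 (1.07, unadjusted p = 0.0290), and the edgeR adjusted p was 0.595 for each. With both sets of libraries left out they were -0.23 for Cyp3a13, -1.21 for Cyp2b10 and 1.22 for Cyp7b1. The larger number of calls in fat-1 than in WT mice was thus not shown to be a difference in effect.

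The genes that P450 enzymes depend on were described from lists of 45 genes, of which 42 were tested. Of a list of 9 electron donors and heme-binding helpers, 8 were tested. All 8 were called lower in fat-1 EtOH mice, where 18.8% of all genes were: P450 reductase (Por, log2 fold change -1.06), cytochrome b5 (Cyb5a -1.57 and Cyb5b -1.27) and its reductase (Cyb5r3 -2.52), the heme-binding helpers Pgrmc1 (-0.93) and Pgrmc2 (-1.73), and mitochondrial Fdx1 (-0.47) and Fdxr (-0.63). Cyb5r3 changed most (log2 fold change -2.52 ± 0.35 (SE), adjusted p = 0.000312). Por was at 205, 217, 194 and 177 CPM in WT PF and 312, 381, 183 and 460.0 CPM in fat-1 PF mice, and at 144, 136 and 104 CPM in WT EtOH and 118, 139, 221, 205 and 117 CPM in fat-1 EtOH mice. In the fat-1 PF libraries that stood apart, replicates 2 and 4, the list of donors and helpers summed to 3858 and 3547 CPM, against 2240 and 1977 CPM in the other 2 fat-1 PF mice, 1357 to 1997 CPM in WT PF and 1009 to 1306 CPM in all EtOH-fed mice. Without these 2 libraries 6 of the 8 were called lower (7.95% of all genes were), all but Por and Fdx1, and the median log2 change of the 8 was -0.71 in place of -1.17. With both sets left out 6 were called lower (7.59% of all genes), all but Fdx1 and Fdxr. Of the 9 heme synthesis genes described, 6 were called lower (18.8% of all genes were): Alad (log2 fold change -1.13 ± 0.16 (SE), adjusted p = 0.000338), Tmem14c (-0.63), Cpox (-0.61), Alas1 (-0.60), Slc25a38 (-0.60) and Urod (-0.57). The other 3, Fech, Ppox and Uros, were not called. Without the 2 fat-1 PF libraries Alad and Slc25a38 were still called lower, and with both sets left out Alad, Alas1 and Tmem14c. Of 4 heme breakdown genes Hmox2 (-0.46) and Blvra (-0.43) were called lower (again with 18.8% of all genes called lower), and Hmox1 was not called (0.68, adjusted p = 0.149). No heme breakdown gene was called without the 3 EtOH libraries, the 2 fat-1 PF libraries or both. None of the electron donor, helper and heme genes described was called in WT mice by edgeR.

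Of 16 nuclear receptors and partner factors, 4 were called lower and 1 higher with EtOH in fat-1 mice, where 18.8% of all genes were called lower and 18.7% higher. Gata4, a factor of the proximal small intestine, was at 86.9, 87.8, 55.6 and 25.6 CPM in WT PF and 75.3, 156, 59.9 and 143 CPM in fat-1 PF mice. It was at 0.448, 0.525 and 0.168 CPM in WT EtOH and 0.570, 1.11, 0, 0.0892 and 1.03 CPM in fat-1 EtOH mice, so that no EtOH-fed mouse came near a PF mouse. It is among the 4 and reached the count limit only through PF libraries, so that no test of it is given. Nr1i3 (CAR), the receptor that induces Cyp2b10, was at 63.1, 44.7, 33.5 and 7.27 CPM in WT PF and 4.75, 5.46 and 2.18 CPM in WT EtOH mice (log2 fold change -3.18 ± 0.78 (SE), adjusted p = 0.155). In fat-1 mice it was at 51.1, 183, 36.1 and 150.5 CPM with PF and 2.38, 3.23, 0.410, 0.981 and 2.05 CPM with EtOH (log2 fold change -5.86 ± 0.71 (SE), adjusted p = 0.000247), and WT PF replicate 4 had the lowest PF value of both Nr1i3 and Cyp2b10. Nr1i2 (PXR) was -0.93 and Gata6 -1.25 on the log2 scale, both called lower. With both sets of libraries left out the Nr1i2 call was lost and that of Gata6 was not. The bile acid receptor Nr1h4 was called higher (log2 fold change 1.16 ± 0.44 (SE), adjusted p = 0.0496), a call that was lost without the 3 EtOH libraries, the 2 fat-1 PF libraries or both. Hnf4a, Ahr, Ppara, Rxra, Vdr and Cdx2 had log2 fold changes of 0.10, -0.30, 0.34, -0.22, 0.24 and 0.05 and were not called.

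Of 4 epoxide hydrolases, which act on the epoxides that Cyp2c and Cyp2j enzymes make, Ephx1 and Ephx2 could be tested. Ephx2 was at 318, 211, 196 and 95.3 CPM in WT PF and 69.7, 60.9 and 51.8 CPM in WT EtOH mice. It was at 375, 1126, 253 and 1157 CPM in fat-1 PF and 61.3, 75.7, 57.4, 70.7 and 49.5 CPM in fat-1 EtOH mice (log2 fold change -3.53 ± 0.43 (SE), adjusted p = 0.000247). All 8 EtOH-fed mice were below all 8 PF mice, and the fat-1 PF mice with the highest levels were the 2 with the highest proximal small intestine genes. Ephx1 was not called (log2 fold change 0.58, adjusted p = 0.100). Without the 2 fat-1 PF libraries it was called higher, though not without the 3 EtOH libraries or both sets. Ephx2 was called lower in each of these fits. Of 2 P450 enzymes that carry other symbols, prostacyclin synthase Ptgis was called higher in fat-1 mice (log2 fold change 0.81 ± 0.26 (SE), adjusted p = 0.0236), though not without the 3 EtOH libraries, the 2 fat-1 PF libraries or both, and thromboxane synthase Tbxas1 was not called (-0.20, adjusted p = 0.714).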

How the data were processed

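The terminal ileum of each mouse gave 1 stranded RNA-seq library made after poly(A) selection. The authors aligned the reads to mm10 (GRCm38) with tophat2, guided by Ensembl transcripts, and deposited raw, unnormalized htseq counts for each Ensembl gene. The strand and multi-mapping settings of this counting are not given in the sources used here, which bears on P450 genes with near-identical copies. For these, the share of 75-base windows of a gene's exons that also occur in other genes was computed from GENCODE M21, which also gave symbols, positions and exon lengths (26 of 21965 genes were absent from it). Mice were grouped by their labels. Whether they came from separate litters or cages was not stated, so that p-values measure the spread between these mice.

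The deposited counts entered edgeR 4.0.16 under R 4.3.3: filterByExpr, TMM scaling and a robust quasi-likelihood fit with 1 mean per group over all 16 libraries, Benjamini-Hochberg adjustment over 13811 genes and a threshold of 0.05. CPM of each mouse use the library size times its TMM factor. Single values and sums were compared with exact two-sided permutation tests (scipy 1.17.1, single genes on log2(CPM + 0.5)), and figures were drawn with matplotlib 3.10.9. Intervals and limits of detection cover counting error only. The fit was also run on simulated data, and no error rate from that run is given here. Alternatives were DESeq2 1.42.0, limma 3.58.1 voom with sample quality weights, RLE and upper-quartile scaling, filters that kept genes with 1 count in any mouse (looser) or required 10 in every mouse (stricter), a fit of only the 2 groups of a comparison, a block for the replicate number, the omission of each mouse in turn, a pseudocount of 2, and leaving out the libraries that stood apart, which was added with the results known. The members and lists were chosen with earlier results of these data known. Described with the values of each mouse are members called in WT mice or between genotypes, the 8 largest changes in each direction with EtOH in fat-1 mice, the 10 highest per kb in WT PF mice, the 3 smallest p in each comparison without a call and the largest call in each direction of subfamilies that split, 24 in all (Cyp2d9, Cyp2d10, Cyp2d12, Cyp2d34, Cyp2w1, Cyp17a1 and Cyp2c23, which met the count limit in 1 diet only, without their test), and further members chosen after their values were seen (Cyp1b1, Cyp27a1, Cyp2c65, Cyp2c66, Cyp2e1, Cyp4a10 and others given by range). The authors' cuffdiff results were not used here, and 1 listed gene is not reported here.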

Additional observations from a re-analysis of the deposited data

Results flagged for a closer look

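Values far from the others of their group (by Dixon's test at the 95% level) were found in 9 of 114 groups of 4 or 5 mice, where chance gives about 1 in 20. Of these, 3 were in fat-1 PF replicate 2: Cyp2c66 at 40.0 CPM against 7.10 to 12.5 in the other 3 mice, Cyp2j6 at 491 CPM against 186 to 207, and Cyp2j9 at 15.3 CPM against 2.65 to 2.73. Cyp4f14 was at 1278 CPM in fat-1 PF replicate 4, against 1703 to 1726 in the others. Both mice are those with the lowest ileal bile acid genes. In fat-1 EtOH replicate 5, Cyp2e1 was at 49.1 CPM against 3.57 to 9.12 and Cyp1b1 at 19.7 CPM against 0.446 to 5.70, and this mouse was also the highest in B-cell, macrophage, adipocyte and endothelial genes. In the same group Cyp2b10 was at 1.62 CPM in replicate 2, against 0.178 to 0.570 in the others. WT PF replicate 4 had the highest Cyp1b1 of its group, 4.47 CPM against 2.62 to 2.89, and the lowest sum over all members, 3605 CPM against 5199.6 to 5517.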

How the results depend on the processing

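Over the planned and added alternatives, 141 recomputed counts and sums stayed close to the reported value and 23 did not. In WT EtOH against WT PF mice the 1 called member became 13 with limma voom and 8 with only the 2 WT groups in the fit, 5 with both sets of libraries left out, and 0 with the looser filter, the stricter filter, the replicate number as a block or without the 3 EtOH libraries, and was 0 to 1 when single mice were left out. In fat-1 mice the 24 calls became 14 with limma voom (26.8% of all genes), 14 with the stricter filter (38.7%; it removes members near 0 in a group), 13 with only the 2 groups (23.2%), 6 without the 2 fat-1 PF libraries and 9 without both sets, and were 18 to 25 without single mice (28.5 to 39.4% of all genes). Averaged over genotypes they became 15 with the stricter filter (37.4%) and were 18 to 25 without single mice (26.9 to 38.1%). Except where fewer genes or mice entered by construction, the cause was not tested. Of the alternative values of 33 log2 changes in the 17 members that were named by rule and reached the count limit in both diets, 773 kept their direction and their side of the threshold, 63 were no longer called, 20 became called and 9 changed sign. The sign changed for Cyp4b1 in fat-1 mice with limma voom (-0.94), without the 3 EtOH libraries (-1.47), the 2 fat-1 PF libraries (-0.055) or both (-1.71) and without fat-1 EtOH replicate 3 (-0.12) or 4 (-0.36), with -0.36 to 0.44 over the fits without single mice, and for Cyp51 without the 2 fat-1 PF libraries (-0.21), fat-1 PF replicate 2 (-0.058) or fat-1 EtOH replicate 2 (-0.04), with -0.058 to 0.45 over the fits without single mice. Outside this tally, the fat-1 change of 5 further members that were not called and reached the limit in both diets took the other sign without 1 or both sets of libraries: Cyp26b1, Cyp2c65, Cyp2j9, Cyp2r1 and Cyp4f18.

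Replicate numbers do not pair the mice: the mean correlation of deviations from the group mean was -0.0225 over 21 pairs with the same number and 0.00703 over 74 others. With the number as a block in edgeR there were 22 calls in fat-1 mice (34.4% of all genes), 23 averaged over genotypes (35.02%) and 0 in the other comparisons (1 to 11 at an unadjusted p below 0.05).

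Depth limits members near 0. At 3 counts, 0.246 to 0.421 CPM, many PF values of Cyp2d9, Cyp2d10, Cyp2d12, Cyp2d34, Cyp2w1 and Cyp4a10 lay near this limit, as did EtOH values of Cyp17a1. Fits without the 3 EtOH libraries gave no value for Cyp2d9 and Cyp2d10. With 3 WT EtOH mice, the smallest p of a permutation test was 0.0286.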
